A study of Mus musculus with 6 samples.

Results

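The HoxC cluster is a row of 9 homeobox genes on mouse chromosome 15, and its expression was followed here in fibroblasts cultured from the adult heart and from the tail. The members are Hoxc4, Hoxc5, Hoxc6, Hoxc8, Hoxc9, Hoxc10, Hoxc11, Hoxc12 and Hoxc13. They were taken as the array probes whose RefSeq accession maps to one of these symbols, which gave 1 probe and 1 spot per gene and 9 of the 37066 features on the array. Values are log2 of the processed spot signal minus the 75th percentile of the non-control spots of the same array, called log2 signal below, so a value of 0 is the level of that percentile. Levels of different probes are not compared with each other, since each probe has its own response.

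The arrays labelled heart held RNA from fibroblasts of digested hearts, and those labelled tail held RNA from fibroblasts of digested, skinned tails. There were 3 arrays per label, 1 per culture. All cultures came from male C57/Bl6-J mice given as 8 weeks old (8 to 10 weeks in the protocol), and each culture pooled 2 animals. Cells were plated for 5 days in serum-containing medium and no sort is described, so the cultures could hold cells other than fibroblasts. The labels do not say whether a heart and a tail culture came from the same mice.

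Hox genes encode transcription factors that specify position along the body axis. Within a cluster the genes are laid out in the order in which they are used along the axis, with low numbers at the anterior and high numbers at the posterior end. Adult fibroblasts are known to keep a Hox pattern of the place they came from, and the tail lies at the posterior extreme, where the highest-numbered genes are used in the embryo.

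All 12 general fibroblast markers in a fixed list, among them the type I collagen genes Col1a1 and Col1a2, were well above background on all 6 arrays. A pair of arrays stood apart. The array labelled heart 2 had 99.3% of spots well above background, against 47.3% to 55.2% on the others, and its probe signals correlated with theirs at 0.7425 to 0.7641 across probes (probes are not replicates), where the other pairs ranged from 0.9571 to 0.9885. The array labelled tail 1 went against its label. On it the heart transcription factor gene Tcf21 had a log2 signal of 5.21, beside 5.13 and 5.05 on heart 1 and 3, and against -5.69 and -5.88 on tail 2 and 3. Results are therefore given for all 6 arrays by label and for the 4 arrays heart 1, heart 3, tail 2 and tail 3. Tail 1 was set aside because of expression itself, so p-values over the 4 arrays are too small by an unknown amount.

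The sequences below show what else the locus encodes and which regulatory stretch of a member was at hand. They come from RefSeq on build GRCm38.p6, where the reference promoter table matched 1 of the 9 members, Hoxc4. Its promoter window of 300 bases, from 250 before to 50 after the annotated start, lies at chr15:103034145-103034444 on the plus strand, and capitals mark its 9 CpG dinucleotides.
Hoxc4 promoter: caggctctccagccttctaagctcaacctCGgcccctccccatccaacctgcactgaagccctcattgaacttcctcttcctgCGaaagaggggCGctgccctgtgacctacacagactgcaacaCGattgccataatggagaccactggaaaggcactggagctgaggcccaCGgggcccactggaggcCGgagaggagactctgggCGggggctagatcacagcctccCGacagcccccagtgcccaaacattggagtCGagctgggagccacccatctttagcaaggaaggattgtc
The median over all 32851 promoter windows was 7 CpG dinucleotides, and 56.5% of windows had 9 or fewer. Searched on both strands, the TATA box TATAAA, the homeodomain core TAATTA and the Hox and Pbx site TGATNNAT were not found in these letters. The same motifs occurred in 13.6%, 5.29% and 8.85% of all windows, in that order. The cluster also holds the microRNA genes Mir196a-2, between Hoxc10 and Hoxc9, and Mir615, between Hoxc5 and Hoxc4. No probe was named for either, nor for the non-coding gene Hotair between Hoxc12 and Hoxc11, so no value is given for these. The 28419 probes that kept the array's own name were not placed on the genome, so a probe for them is not excluded. The mature microRNAs named for the main arm are shown with the seed (bases 2 to 8) in capitals, and their seeds differ.
mmu-miR-196a-5p: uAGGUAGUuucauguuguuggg
mmu-miR-615-3p: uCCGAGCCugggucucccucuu

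The HoxC genes were at or near background on heart 1 and heart 3 and, for 7 of the 9, far above it on tail 2 and tail 3. On heart 1 and heart 3, 1 and 0 members were well above background, against 8 and 7 members on tail 2 and tail 3. The array labelled heart 2 had all 9 well above background, which says little on an array where nearly every spot was, and the array labelled tail 1 had 3. By distance to the mean of each pair, heart 2 was nearer to tail 2 and 3 than to heart 1 and 3 at 9 of 9 members, and tail 1 was nearer to heart 1 and 3 at 8 of 9. The share over all features was not counted. Among the 12 fibroblast markers heart 2 was nearer to tail 2 and 3 at 7, and tail 1 nearer to heart 1 and 3 at 11. Nearer need not mean near: at Hoxc5 heart 2 was 6.05 from the tail mean and 6.98 from the heart mean. Nothing particular to HoxC is read from these counts. In bulk cultures, fewer cells expressing a gene and less RNA per cell cannot be told apart.

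**Figure D1:**
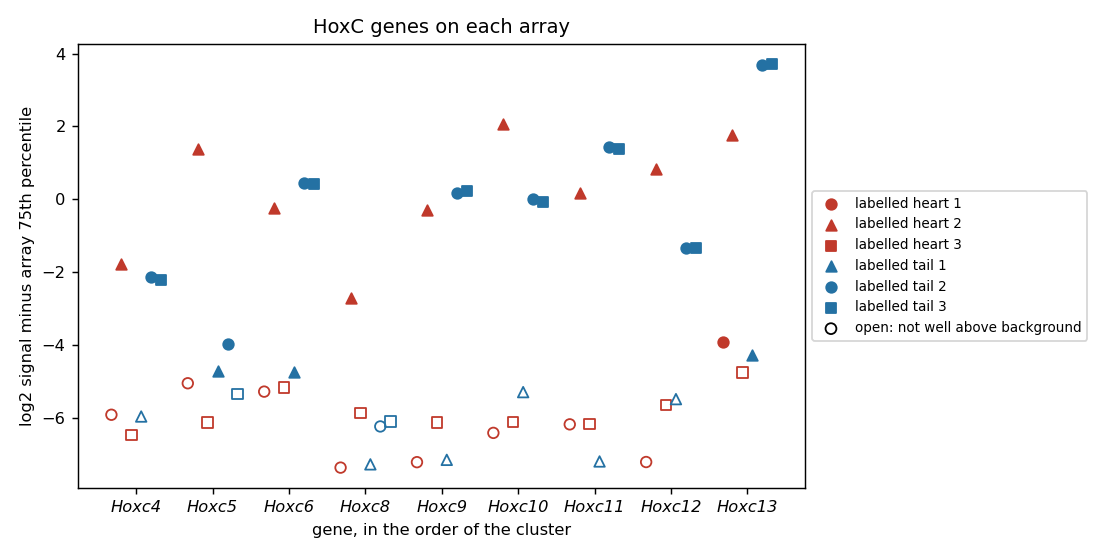
Log2 signal (y axis, relative to the 75th percentile of each array) of the 9 HoxC genes, in cluster order, on each of the 6 arrays, with arrays labelled heart in red and those labelled tail in blue. Open points were not well above background; tail 2 and tail 3 lie together and above heart 1 and heart 3 at 7 genes, while the triangles (heart 2 and tail 1) lie nearer to the other label at those genes.

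Hoxc13, the last gene of the cluster, which in mouse is needed for hair and nail formation, was far lower on heart 1 and 3 than on tail 2 and 3. Its log2 signals were -3.93, 1.76 and -4.76 on heart 1, 2 and 3, and -4.28, 3.69 and 3.71 on tail 1, 2 and 3. Tail 2 and 3 were the highest, heart 2 lay between, and tail 1 lay among the other heart arrays, so the labels overlap. In scanner units its processed signal was 47.2 and 19.7 on heart 1 and 3, and 5885 and 7087 on tail 2 and 3. It was the only member well above background on heart 1. Over the 4 arrays the difference, heart minus tail, was -8.04 (SE 0.36, limma adjusted p = 0.0232 over all features). No fold is given, since 1 of the 2 heart arrays measured it above background.

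Hoxc12, which neighbours it and is likewise a gene of the caudal end and of hair follicles, was likewise well above background on tail 2 and 3. It had -7.22, 0.84 and -5.65 on heart 1, 2 and 3, and -5.49, -1.34 and -1.33 on tail 1, 2 and 3. The tail 2 and 3 values were almost equal, and the heart 1 and 3 values, neither well above background, differed from each other by 1.57. With heart 1 and 3 set at the lowest signal well above background on each array, Hoxc12 was at least 10.5-fold lower in them. Here and below such a fold is an approximate bound, since some spots above that signal were not well above background. On heart 1 that signal was -5.28, while Hoxc5 was at -5.05 and not well above background. The Hoxc12 difference of -5.10 (SE 0.61) did not pass over all features (limma adjusted p = 0.0641).

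Hoxc11, a gene of the sacral region and hindlimb in mouse, had -6.18, 0.18 and -6.18 on heart 1, 2 and 3, and -7.20, 1.45 and 1.37 on tail 1, 2 and 3. Heart 1 and 3 were almost equal and not well above background, and tail 1 was lower than either. It was at least 70.2-fold lower in heart 1 and 3 than in tail 2 and 3 (limma adjusted p = 0.0224). Hoxc10, active in lumbar segments and hindlimb, had -6.42, 2.08 and -6.11 on heart 1, 2 and 3, and -5.30, 0.01 and -0.08 on tail 1, 2 and 3. Here the array labelled heart 2 was the highest of all 6, 2.11 above the mean of tail 2 and 3 on the log2 scale. Hoxc10 was at least 25.8-fold lower in heart 1 and 3 (adjusted p = 0.0229).

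Hoxc9, which in the mouse spinal cord sets the thoracic motor column, had -7.22, -0.28 and -6.13 on heart 1, 2 and 3, and -7.16, 0.17 and 0.24 on tail 1, 2 and 3. Tail 2 and 3 were nearly equal, heart 2 was 0.49 from their mean, and the other 3 arrays were not well above background. It was at least 30.4-fold lower in heart 1 and 3 than in tail 2 and 3 (limma adjusted p = 0.0278). Hoxc6, a gene of the upper thorax and of mammary tissue, gave -5.28, -0.24 and -5.18 on heart 1, 2 and 3, and -4.73, 0.45 and 0.42 on tail 1, 2 and 3. Its tail 1 value was well above background, yet 5.17 from the mean of tail 2 and 3 on the log2 scale. Hoxc6 was at least 35.8-fold lower in heart 1 and 3 (adjusted p = 0.0229).

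Hoxc4, at the anterior end of the cluster and the member whose promoter is printed above, was also well above background on tail 2 and 3 and not on heart 1 and 3. Its log2 signals were -5.92, -1.79 and -6.47 on heart 1, 2 and 3, and -5.97, -2.14 and -2.21 on tail 1, 2 and 3. The 3 arrays well above background were heart 2, tail 2 and tail 3. In scanner units it had 11.9 and 6.00 on heart 1 and 3, and 103 and 117 on tail 2 and 3. It was at least 5.87-fold lower in heart 1 and 3 (limma adjusted p = 0.0289).

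Hoxc8 and Hoxc5 departed from their neighbours. Hoxc8, which patterns the thoracic skeleton and brachial motor neurons, was not well above background on any array other than the one labelled heart 2. Its log2 signals were -7.37, -2.70 and -5.88 on heart 1, 2 and 3, and -7.28, -6.24 and -6.11 on tail 1, 2 and 3. The groups overlap, and the difference over the 4 arrays was -0.45 (SE 0.58, limma adjusted p = 0.737). In scanner units its heart 1 and 3 signals were 4.34 and 9.06, with spot errors of 4.36 and 6.95, and its tail 2 and 3 signals were 6.03 and 7.82, with spot errors of 4.28 and 7.85, so a low level would not be detectable on this probe. Hoxc8 lies between Hoxc9 and Hoxc6, both of which were well above background on tail 2 and 3.

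Hoxc5, between Hoxc6 and Hoxc4, had log2 signals of -5.05, 1.38 and -6.13 on heart 1, 2 and 3, and -4.73, -3.99 and -5.35 on tail 1, 2 and 3. Tail 2 was well above background and tail 3 was not, so the tail arrays disagreed by 1.37 where the other 8 members differed between them by 0.01 to 0.13. Its difference over the 4 arrays was -0.92 (SE 0.67, limma adjusted p = 0.702). The array labelled heart 2 was the highest by far for Hoxc5, with a processed signal of 6407 scanner units.

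The same probes were also placed by their rank within each array, which does not depend on the scaling. On heart 1 and 3 the median HoxC probe stood at percentiles 35.9 and 29.2 of all probes, and on tail 2 and 3 at 76.3 and 75.8. It stood at 78.3 on the array labelled heart 2 and at 41.7 on the array labelled tail 1. Hoxc13 reached percentiles 90.8 on heart 2, 92.5 on tail 2 and 92.6 on tail 3. Ranks on heart 2 did not follow tail 2 and 3 for every gene. Hoxc4 stood at 43.0 on heart 2, below 64.7 and 64.1 on tail 2 and 3, and Hoxc5 at 88.8, above 53.0 and 42.2. The part of the overall brightness of heart 2 in these ranks was not tested.

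**Figure D2:**
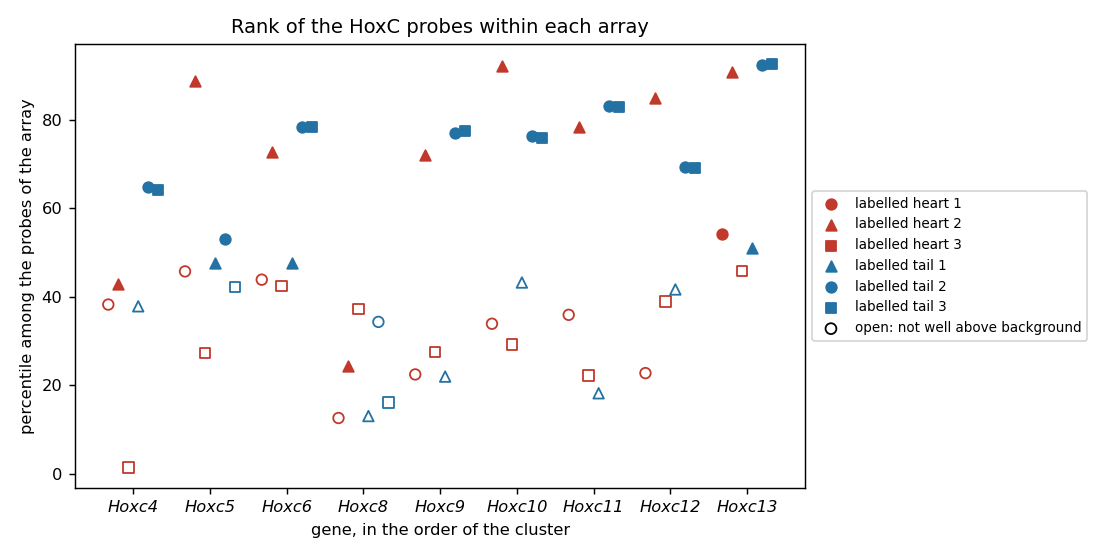
Percentile of each HoxC probe (y axis) among all probes of its array, with genes in cluster order; symbols and colours mark the array and its label, and open points were not well above background. The median member stands at 76.3 and 75.8 on tail 2 and 3, and at 35.9 and 29.2 on heart 1 and 3.

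Compared by label over all 6 arrays, no HoxC gene passed. By limma 0 of the 37066 features (0%) passed without a filter and 247 had an unadjusted p under 0.05, none of them a HoxC gene. The differences of the 9 members ran from -3.35 for Hoxc13 to 1.42 for Hoxc5, with adjusted p between 0.736 and 0.777. Hoxc13 averaged -2.31 ± 3.55 in arrays labelled heart and 1.04 ± 4.61 in arrays labelled tail (SD, n = 3 each). The spread within each label exceeded the difference between them. Hoxc5 and Hoxc8 were higher in heart by label (1.42 and 1.23), and without the array labelled heart 2 both signs turned (-0.90 and -0.08). Only Hoxc6 and Hoxc13 were above background on all arrays of a label, and among the 20197 such features neither passed (differences -2.28 and -3.35, adjusted p = 0.726 for both).

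Over the 4 arrays, 6 of the 9 HoxC genes were lower in heart and passed by limma over all features, where 0.925% of all features were called lower in heart, 0.942% higher and 1.87% in either direction. They were Hoxc4, Hoxc6, Hoxc9, Hoxc10, Hoxc11 and Hoxc13; Hoxc5, Hoxc8 and Hoxc12 did not pass, and 0 were higher. The median difference of the 9 was -5.67, beside -0.18 over all features. Values of heart 1 and 3 lay below those of tail 2 and 3 without overlap at 7 of the 9, against 26.4% of all features. With n = 2 per group these calls are fragile: leaving out any 1 of the 4 arrays left 0 HoxC genes and 0 features past the threshold, with adjusted p from 0.134 to 0.324 for the 6 genes and Hoxc12. With normexp background correction (offset 50, which narrows differences of low signals) and quantile normalization the differences were smaller. They were -5.70 for Hoxc13, -4.16 for Hoxc11, -2.83 for Hoxc10 and -1.51 for Hoxc4. With quantile normalization alone Hoxc4 no longer passed (limma adjusted p = 0.0832) and Hoxc12 did (adjusted p = 0.032). Among the 20567 features well above background on both arrays of a group, 7 members were tested, and each entered through tail alone, so that it had to differ. All 7 were called there, where 6.53% of features were called lower in heart, 7.74% higher and 14.3% in either direction, and nothing is read from that count.

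From the Hoxc13 end to the Hoxc4 end the differences were -8.04, -5.10, -7.59, -6.23, -6.88, -0.45, -5.67, -0.92 and -4.02. Except for Hoxc13 on heart 1, heart 1 and 3 were not well above background at any member, so a difference is set by the tail signal and the floor of its own probe, and sizes are not compared between genes. The 9 genes between Calcoco1 and Smug1 are the only coding genes annotated there.

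No flanking gene passed over all features. Calcoco1, a coiled-coil coactivator gene next to Hoxc13, had -1.76 and -1.01 on heart 1 and 3, and -0.70 and -0.36 on tail 2 and 3. Its difference of -0.85 (SE 0.36) did not pass (limma adjusted p = 0.50). Smug1, a DNA repair glycosylase gene beyond Hoxc4, had -0.98 and -1.20 on heart 1 and 3, and -0.85 and -0.79 on tail 2 and 3, with a difference of -0.27 (SE 0.21, adjusted p = 0.719). Both were well above background on all 6 arrays. Of 13 flanking genes measured, 5 on the Hoxc13 side and 8 on the Hoxc4 side, 0 passed over all features, and their differences ran from -1.74 to 1.23. The lowest belonged to Itga5, the fibronectin receptor subunit gene and the farthest of the list on the Hoxc4 side, with 0.50 and 0.47 on heart 1 and 3, and 2.26 and 2.20 on tail 2 and 3. It passed only among features above background (adjusted p = 0.00372, against 0.0573 over all features). Whether the cluster and its flanks differ as groups was not tested.

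**Figure D3:**
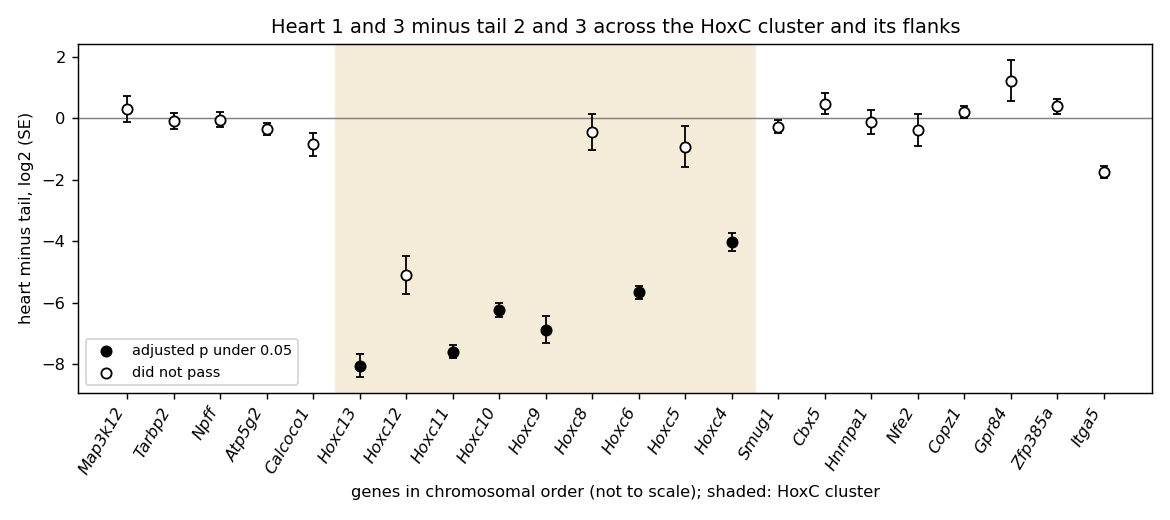
Difference of heart 1 and 3 minus tail 2 and 3 (log2, y axis; bars are the standard error from limma) for the HoxC genes (shaded) and 13 flanking genes, in chromosomal order and not to scale. Filled points passed over all features; the shaded genes other than Hoxc8 and Hoxc5 lie between -8.04 and -4.02, and the flanking genes between -1.74 and 1.23.

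The other Hox clusters were set beside HoxC in the same 4 arrays. Over all features 6 of 11 HoxA genes and 6 of 10 HoxB genes were lower in heart, and 0 were higher. Of 9 HoxD genes 0 were lower and 1, Hoxd8, was higher. Hoxd8 was the single HoxD gene well above background on any of the 4 arrays. The median differences were -2.91 for HoxA, -5.27 for HoxB and 0.02 for HoxD, beside -5.67 for HoxC, and the differences between clusters were not tested.

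Within paralogue groups, the members that share a number had unlike values. In group 13, Hoxc13 (-8.04), Hoxb13 (-12.92) and Hoxa13 (-5.50) all passed and were lower in heart, and Hoxd13 was at -0.75 and not well above background. These sizes are likewise not ranked, since most heart values were not well above background. In group 9, Hoxc9 (-6.88) and Hoxb9 (-8.13) were low in heart, while Hoxa9 (-1.05, limma adjusted p = 0.27) was well above background on all 4 arrays. In group 8, where Hoxc8 was not well above background on the 4 arrays, Hoxb8 differed by -5.63 and Hoxd8 by 4.56 in the other direction. In group 5, Hoxb5 differed by -4.91 (adjusted p = 0.0278) and Hoxa5 by -2.91 (adjusted p = 0.16), beside -0.92 for Hoxc5.

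**Figure D4:**
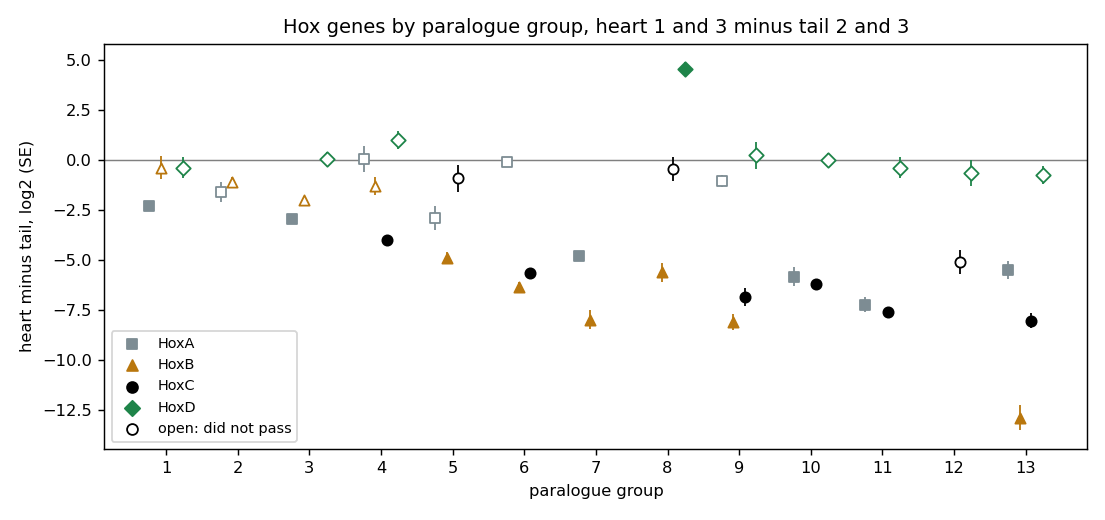
Difference of heart 1 and 3 minus tail 2 and 3 (log2, y axis; bars are the standard error) for 39 Hox genes by paralogue group (x axis), HoxC in black. Filled points passed over all features. HoxC lies below 0 in every group it has, as do 23242 of all 37066 features, and Hoxc5, Hoxc8 and Hoxc12 did not pass. Hoxc8 was not well above background on these 4 arrays. The HoxD genes lie between -0.75 and 1.02 except for Hoxd8 at 4.56.

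Hox proteins bind DNA together with Meis, Pbx and Pknox homeodomain cofactors, and 0 of 9 cofactor genes passed over all features. Among features above background 3 of 8 rose in heart and 1 fell. Meis1 had 2.87 and 3.05 on heart 1 and 3, and 1.17 and 1.27 on tail 2 and 3 (difference 1.75, limma adjusted p = 0.00482). Meis2 and Pknox2 were higher in heart by 1.17 and 1.43 (adjusted p = 0.0121 and 0.00631), and Pknox1 fell by 0.77 (adjusted p = 0.0466).

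Of 15 measured genes that act upstream of Hox clusters, 1 passed over all features. Rarb, a retinoic acid receptor gene, had 1.11 and 1.57 on heart 1 and 3, and -2.90 and -2.68 on tail 2 and 3 (difference 4.13, limma adjusted p = 0.0278). Among features above background Rara, another such receptor gene, was also called, lower in heart by a difference of -1.03 (adjusted p = 0.018). The axial regulators Cdx1, Cdx2 and Cdx4 were not well above background on heart 1, heart 3, tail 2 or tail 3. The Polycomb genes Ezh2, Eed, Suz12 and Bmi1, whose products repress Hox clusters, differed by 0.67, 0.60, 0.17 and 0.11 and did not pass.

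Skin and hair markers were read beside these values, since Hoxc13 and Hoxc12 are also used in hair follicles. Of 12 keratinocyte markers 0 passed over all features. Among features above background 1 of 5 was called, Perp, higher in heart by 1.07 (limma adjusted p = 0.0441). Perp entered through heart alone. Krt1, Dsg3, Dsc3 and Cdh1 were not well above background on any of the 4 arrays, while Krt5, Krt10, Trp63 and Sfn were on all 4. The basal keratin gene Krt5 had -3.87 and -3.54 on heart 1 and 3, and -3.46 and -3.83 on tail 2 and 3. Summed over the list, the scaled linear signal was 6.27 and 6.88 on heart 1 and 3, and 6.22 and 5.53 on tail 2 and 3. Most of each sum came from Trp63, the brightest of the list, with 2.45 and 2.45 on heart 1 and 3, and 2.44 and 2.23 on tail 2 and 3. Of 11 hair follicle markers on the array, 7 were not well above background on any of the 4 arrays. Among them were the hair keratin genes Krt33a, Krt33b and Krt34 and Foxn1, the gene for a hair follicle transcription factor. The hair keratin genes Krt31 and Krt86 were well above background on all 4, and Krt71 on heart 1 and tail 2. Krt31 had -2.24 and -2.07 on heart 1 and 3, and -1.67 and -1.86 on tail 2 and 3. Krt86 had -3.09 and -2.75 on heart 1 and 3, and -2.78 and -3.18 on tail 2 and 3. In that list 1 gene passed, the Wnt effector gene Lef1, at least 4.11-fold lower in heart (adjusted p = 0.0357). The summed signal of the list was 0.440 and 0.534 on heart 1 and 3, and 0.776 and 0.664 on tail 2 and 3.

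Of 5 tendon markers 4 were lower in heart over all features, with a summed signal of 3.38 and 4.87 on heart 1 and 3, and 422 and 387 on tail 2 and 3. Thbs4 was by far the brightest of the tendon list on tail 2 and 3 and led the sums there. Of 8 cartilage markers 2 were lower in heart and 1, Sox9, was higher. Sox9 had 3.08 and 2.93 on heart 1 and 3, and -0.64 and -0.61 on tail 2 and 3. The cartilage sums were 11.2 and 13.2 on heart 1 and 3, and 94.1 and 107 on tail 2 and 3. Comp was by far the brightest of that list on tail 2 and 3 (6.47 and 6.67) and led the sums there, so they do not speak for the list as a whole. Of 9 skeletal muscle markers 0 passed over all features, with sums of 14.02 and 11.1 on heart 1 and 3, and 39.6 and 34.8 on tail 2 and 3. Acta1 was the brightest of the muscle list on tail 2 and 3 (5.28 and 5.05) and led those sums. The muscle progenitor genes Pax7 and Myf5, and Ckm, were not well above background on these 4 arrays. Myog and Myh3 were well above background on tail 2 and 3 and on neither heart 1 nor heart 3. Among features above background 3 of 5 muscle markers were called lower in heart, with Myog and Myh3 entering through tail alone. Among the 12 fibroblast markers 0 passed over all features, and 4 rose and 2 fell among features above background, with sums of 2814 and 3532 on heart 1 and 3, and 3158 and 2902 on tail 2 and 3. Of 6 endothelial markers 2 were higher in heart over all features, of 6 cardiomyocyte markers 1 was lower, and of 5 leukocyte markers 0 passed. Among features above background 4 of 6 endothelial and 3 of 5 leukocyte markers were called higher in heart. Of 5 cardiomyocyte markers tested there, 1 was called higher in heart and 2 lower. Tie1, Cldn5 and Ptprc entered through heart alone, and Actc1 and Mb through tail alone. The part of these cell types in the HoxC result was not tested.

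Likeness of profile was ranked among genes outside the Hox clusters and outside the flanking, cofactor and upstream lists. The nearest to HoxC there were Insyn1, Slc6a12, Bfsp2, Fgf10 and Duox1. Likeness was the Pearson correlation over the 6 arrays with the mean profile of the 7 HoxC genes above background. The 13265 RefSeq-named genes compared had no missing value and were well above background on heart 1 and 3 or on tail 2 and 3. Likeness ranged from 0.996 to 0.999 for the 5 named. That mean profile was -6.03, 0.36 and -5.78 on heart 1, 2 and 3, and -5.73, 0.33 and 0.30 on tail 1, 2 and 3. Fgf10, a growth factor gene of limb outgrowth, had -5.64, -1.42 and -5.12 on heart 1, 2 and 3, and -5.21, -1.12 and -1.31 on tail 1, 2 and 3. The 6 values fall in 2 clusters of 3 arrays, and the correlation carries no p.

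The authors' deposited table of 433 probes lists 4 HoxC genes, all lower in heart. Its log2 fold changes of heart over tail were -4.52 for Hoxc6, -5.81 for Hoxc9, -6.79 for Hoxc11 and -7.12 for Hoxc13 in the authors' deposited table. For the same genes, in that order, the 4-array differences were -5.67, -6.88, -7.59 and -8.04, and those by label over 6 arrays were -2.28, -2.29, -2.60 and -3.35. Which arrays the authors' deposited table used is not stated. By size towards tail, Hoxc13 and Hoxc11 ranked 13 and 17 in the authors' deposited table.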

How the data were processed

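RNA of 6 fibroblast cultures was hybridised to 1-colour (Cy3) Agilent arrays, all on 1 slide. Per the file headers, the deposited spot intensities come from Agilent Feature Extraction 11.0.1.1 and are background-subtracted and detrended within each array, with no scaling between arrays. Other deposited columns are flags, 0 or 1 per spot, and spot errors. A table deposited by the authors lists 433 probes with the log2 heart over tail change and its linear ratio, and how it was made is not stated.

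Log2 processed signals were scaled by the 75th percentile of each array, outlier spots were left out and spots of a probe averaged. RefSeq accessions named 27235 probes through the GRCm38.p6 annotation, 27 were named through the authors' list, and 28419 kept the array's name. Each gene was represented by its probe of highest mean. Groups were compared with limma 3.58.1 in R 4.3.3 (lmFit and eBayes, two-sided, Benjamini-Hochberg over all features tested, adjusted p under 0.05), either on all features or on those that every array of 1 group or the other measured well above background. The unfiltered 4-array fit was chosen as a result of its own after seeing the data, so that every member has a value. The fit was tested on simulated data. P-values measure the spread among these pooled cultures. The number of arrays limits the precision.

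The genes named were every member, and the listed flanking genes, paralogues, cofactors and upstream genes by count with examples. The 5 most alike in profile outside these lists were also named. Members, lists and the 4-array comparison were chosen with earlier results of these data known. Python 3.11.15, pandas 2.3.3 and matplotlib 3.10.9 were used for tables and plots.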

Additional observations from a re-analysis of the deposited data

How the results depend on the processing

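By label, 2 arrays decide the outcome: without those labelled heart 2 and tail 1 the count of features was 2933, against 0, with the filter (7 HoxC genes) and 692 without it (6 HoxC genes, with Hoxc5 at -0.92 and Hoxc8 at -0.45 turned in sign). Leaving out 1 array of the 6 gave 0 to 239 features (239 without heart 1) and 0 HoxC genes. Same-numbered arrays had deviations from their label means correlated at 0.381, 0.0521 and -0.244. Those means include heart 2 and tail 1, which go against their labels, so these values cannot show whether the numbers pair the arrays. A replicate block let 120 features and 1 HoxC gene, Hoxc13 (adjusted p = 0.0351), pass with the filter and 0 without. Without a filter, leaving out heart 2 or tail 1 gave Hoxc5 -0.902 and 1.403, and Hoxc8 -0.0802 and 0.859. The cause was not tested.

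On 4 arrays with the filter, leaving out 1 array gave 1489 (tail 3) to 4056 (heart 1) features and 1809 without tail 2. Nothing is read from the HoxC calls there, since the members tested entered through tail. Requiring signal on all 4 arrays left 0 HoxC genes to test, by its construction, and no filter gave 692 features. Normexp background correction (on median spot signals, with an offset of 50) shrank the HoxC differences most, to -5.70 for Hoxc13 and -1.51 for Hoxc4. An offset added to low signals narrows log2 differences by construction. Quantile normalization, with or without normexp, was run over all 6 arrays, heart 2 included, before the 4 were taken. Without a filter the 4-array count of features was 1133 with quantile normalization, 1092 with median scaling, 1965 with normexp, 2451 with the slide row as a block and 3502 with an intensity trend, with 6 or 7 HoxC genes passing in each. It was 0 features and 0 HoxC genes without any 1 array. Hoxc8 turned sign with quantile normalization (0.0698), and ranged from -1.196 to 0.298 without 1 array, and its signal over background limits any statement on it. The 4 arrays share only number 3, so no replicate block could be fitted there.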
